A study of Rattus norvegicus with 12 samples.

Results

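DNA replication and S-phase genes are the genes whose products license origins, open and copy DNA, supply nucleotides and check the copy while a cell passes through S phase. The members are 52 named genes, and every probe of the arrays whose gene name in the scanner files was 1 of them was taken. This gave 77 probes for the 52 genes, of 25626 genes with a symbol on the arrays. A probe was kept if the scanner software read it well above background on at least 4 of 12 arrays, which left 74 member probes and 51 of the 16381 genes that could be tested. The missing member is Dnmt1, the maintenance DNA methyltransferase, whose only probe was not well above background on any array. The brightest kept probe stood for each gene.

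The samples were calvarial bone (the flat bone of the skull vault) of 10-week-old rats, taken 24 h after surgery. In the 4 laser samples a defect of 8 by 3 mm was cut with an Er:YAG laser, which emits infrared light that water absorbs strongly, at 127 mJ per pulse, 20 Hz and 3 strokes. In the 4 bur samples a defect of the same size was drilled with a bur, a rotary dental instrument. In the 4 control samples the periosteum (the membrane over the bone) was stripped, as the protocol states, and the bone was left whole, although their source label calls the bone non-treated. The study therefore compared cut with uncut bone, and laser cutting with drilling, and the control bone had been operated on as well. Total RNA was labelled with Cy3 and each sample was hybridised to 1 Agilent array, so that the number of arrays, 4 per group, limits the precision. The labels do not say whether samples came from separate animals, so the p-values measure only the spread between these samples.

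Before S phase, the origin recognition complex with Cdc6 and Cdt1 loads the MCM helicase onto DNA. Cyclin E and the E2F transcription factors then open S phase, Cdc45 and GINS activate the helicase, and the polymerases, the sliding clamp PCNA and its loader RFC copy the strands while ribonucleotide reductase and other enzymes supply the nucleotides. In the skull vault such cells include precursors in the marrow spaces and in the osteogenic layer on the bone surface, whereas osteocytes inside the bone matrix do not divide. E2F factors bind in the promoters of many of these genes, which is why promoters of members are shown here.

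The promoter windows below, from 250 bases before to 50 bases after the annotated start (300 bases, RefSeq, assembly GRCr8), belong to 4 members that all fell against control bone in both comparisons and that hold 2 separate matches to the letters searched for E2F. Capitals mark those matches.
Mcm3, chr9:30733697-30733996, minus strand: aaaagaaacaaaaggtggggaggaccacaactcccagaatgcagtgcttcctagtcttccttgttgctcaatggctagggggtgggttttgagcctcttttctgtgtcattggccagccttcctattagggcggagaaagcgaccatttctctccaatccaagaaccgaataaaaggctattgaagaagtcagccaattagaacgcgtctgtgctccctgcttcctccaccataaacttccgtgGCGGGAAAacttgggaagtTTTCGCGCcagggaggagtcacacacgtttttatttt
Mcm5, chr19:13488563-13488862, plus strand: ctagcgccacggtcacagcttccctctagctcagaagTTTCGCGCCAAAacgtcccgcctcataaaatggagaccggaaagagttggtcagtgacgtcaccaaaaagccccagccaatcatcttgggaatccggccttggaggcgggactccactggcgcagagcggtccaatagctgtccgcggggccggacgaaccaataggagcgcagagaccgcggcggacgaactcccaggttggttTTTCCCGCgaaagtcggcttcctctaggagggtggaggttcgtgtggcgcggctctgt
Mcm7, chr12:22163129-22163428, minus strand: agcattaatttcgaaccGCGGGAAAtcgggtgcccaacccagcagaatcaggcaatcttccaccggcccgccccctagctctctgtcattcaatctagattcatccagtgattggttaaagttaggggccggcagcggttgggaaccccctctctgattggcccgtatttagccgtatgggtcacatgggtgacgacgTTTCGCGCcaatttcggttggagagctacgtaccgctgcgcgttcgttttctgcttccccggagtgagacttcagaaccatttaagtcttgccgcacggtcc
Rfc3, chr12:5836318-5836617, plus strand: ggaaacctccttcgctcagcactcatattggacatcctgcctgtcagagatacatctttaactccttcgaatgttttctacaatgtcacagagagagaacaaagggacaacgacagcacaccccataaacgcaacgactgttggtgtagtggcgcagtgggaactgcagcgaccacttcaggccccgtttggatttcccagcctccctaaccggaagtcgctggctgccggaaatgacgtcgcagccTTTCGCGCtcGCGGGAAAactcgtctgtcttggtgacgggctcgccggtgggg
The letters searched were TTTCCCGC, TTTCGCGC, TTTGCCGC and TTTGGCGC on both strands, with overlapping matches merged. Windows were given for 42 of the 52 members. In all, 6 windows of members held 2 or more matches. Those not shown belong to Cdt1, called in neither comparison with control bone, and Uhrf1, called lower in laser bone only. At least 1 match lay in the windows of 20 of these 42 genes (47.6%), against 560 of all 19005 genes with a window (2.95%). The letters CCAAT, searched on both strands too, lay in 25 member genes (59.5%), against 39.8% of all genes, and TTTGAA in 4 (9.52%), against 18.1%. A match is only a run of letters and not a site of binding.

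The arrays read the members through probes of 60 bases, placed on the rat build rn4 by the scanner files. Those shown measured the member that fell furthest in both comparisons with control bone (Ccne1), the largest difference between laser and bur bone (Rfc4), and a gene whose 2 probes disagreed (Brca2). They start at bases 1861, 726, 10268 and 1676 of their transcripts.
Ccne1, chr1:90568197-90568256, minus strand: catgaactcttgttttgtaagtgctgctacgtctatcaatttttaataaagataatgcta
Rfc4, chr11:79949868-79949927, plus strand: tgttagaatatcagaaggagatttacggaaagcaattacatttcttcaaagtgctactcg
Brca2, brighter probe, chr12:4282968-4283027, minus strand: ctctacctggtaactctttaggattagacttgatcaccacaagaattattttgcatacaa
Brca2, dimmer probe, chr12:4313405-4313464, minus strand: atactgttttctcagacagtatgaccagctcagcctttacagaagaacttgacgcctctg

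Some features of the arrays bear on every comparison. All laser arrays lay on slide 2, so slide and laser treatment cannot be told apart. The bur and control arrays shared slide 1 in separate blocks of positions, so position on the slide and drilling cannot be told apart either. The median processed signal was 55.6 to 81.9 on laser arrays, 18.6 to 28.3 on bur arrays and 16.5 to 43.2 on control arrays, and 67.5 to 72.0%, 57.0 to 59.9% and 57.2 to 64.4% of their spots were well above background. Of 12 osteoblast and osteocyte markers 11 were measured, all but Fgf23, among them Bglap, Col1a1, Dmp1 and Mepe on every array, and their summed signal was 215135 to 299452 in laser bone, 140253 to 213221 in bur bone and 97721 to 183125 in control bone.

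Replication genes read lower in cut bone than in control bone after either instrument. In bur-drilled bone 38 of the 51 tested members were called lower than in control bone and none higher, by limma with Benjamini-Hochberg adjustment over all genes, at an adjusted p under 0.05. That is 74.5% of the members, against 9.68% of all genes called lower, 13.2% called higher and 22.9% called in either direction. In laser-ablated bone 32 of 51 members were called lower than in control bone (62.7%) and none higher, against 16.1% of all genes called lower and 18% called higher. At an unadjusted p under 0.05, 45 members were lower and 0 higher in bur bone, and 34 were lower and 0 higher in laser bone. Since RNA of whole bone was measured, fewer cycling cells and less RNA per cell cannot be told apart.

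The median log2 fold change of the members was -0.90 in bur bone against control bone, where the median of all genes tested was 0.07. It was -0.83 in laser bone against control bone, where all genes had a median of 0.01. Below 0 lay 50 of 51 members in the bur comparison and 45 of 51 in the laser comparison. The estimates spanned -1.70 to 0.26 with the bur and -1.57 to 0.71 with the laser, with Ccne1 lowest and Gins2, a dim gene, highest in both. Whether the members differed from each other in their change was not tested. A fall of at least 2-fold was called for 14 members in bur bone (4.52% of all genes) and for 5 in laser bone (4.79%), and a rise of at least 2-fold in bur bone for 0 members (6.36% of all genes). When arrays were scaled to their 75th percentile instead of by quantiles, the median of all genes in bur against control bone was -0.10, with 14.2% of genes called lower and 9.55% higher in place of 9.68% and 13.2%. The members' median was then -0.92 and 46 were called lower.

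**Figure D1:**
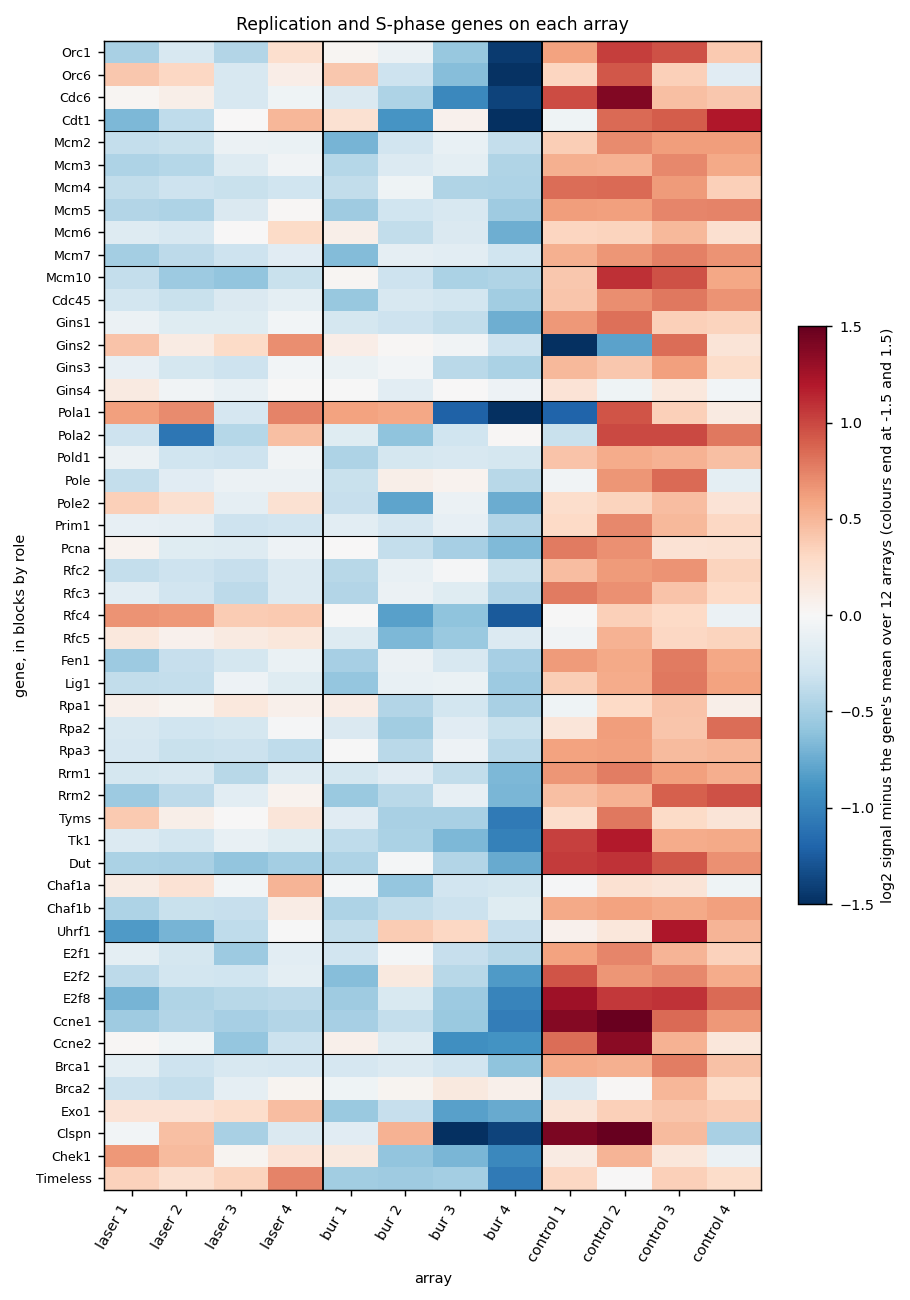
Signal of the 51 tested members (rows, in blocks by role) on the 4 laser, 4 bur and 4 control arrays (columns), as log2 signal minus the gene's mean over the 12 arrays. Most rows are red on the 4 control arrays and blue on the laser and bur arrays, and bur 4 is the deepest blue column, with the lowest value of 27 members.

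The plot of the members on each array shows how regular the pattern was. All 4 bur values lay below all 4 control values for 37 members (9.82% of all genes did so), and all 4 laser values lay below the control values for 32 (16.9% of all genes). Array by array, the median deviation of the members from their own mean was -0.21, -0.27, -0.24 and -0.05 on laser arrays and -0.26, -0.26, -0.30 and -0.54 on bur arrays, against 0.43, 0.66, 0.56 and 0.38 on control arrays. Every control array thus stood above every array of cut bone. Bur 4 was the lowest of the 12 arrays for 27 members, and control 2 was the highest for 21. Without control 1 and control 4, which read neural genes high, 40 members were called lower in bur bone and 32 in laser bone.

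Both comparisons use the same control arrays, so their lists are not independent. Called lower in both were 31 members, in bur bone only 7 and in laser bone only 1, and 12 were called in neither. The direct test between laser and bur bone found 8 members higher in laser bone and 0 lower, also 0 at an unadjusted p under 0.05 (limma). Among all genes 11.5% were called higher and 13.8% lower in laser bone than in bur bone, so the members' share called higher, 15.7%, lay near that of all genes. Higher by at least 2-fold were 2 members, Rfc4 and Timeless (7.25% of all genes). The median difference of the members was 0.13, with -0.06 for all genes.

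**Figure D2:**
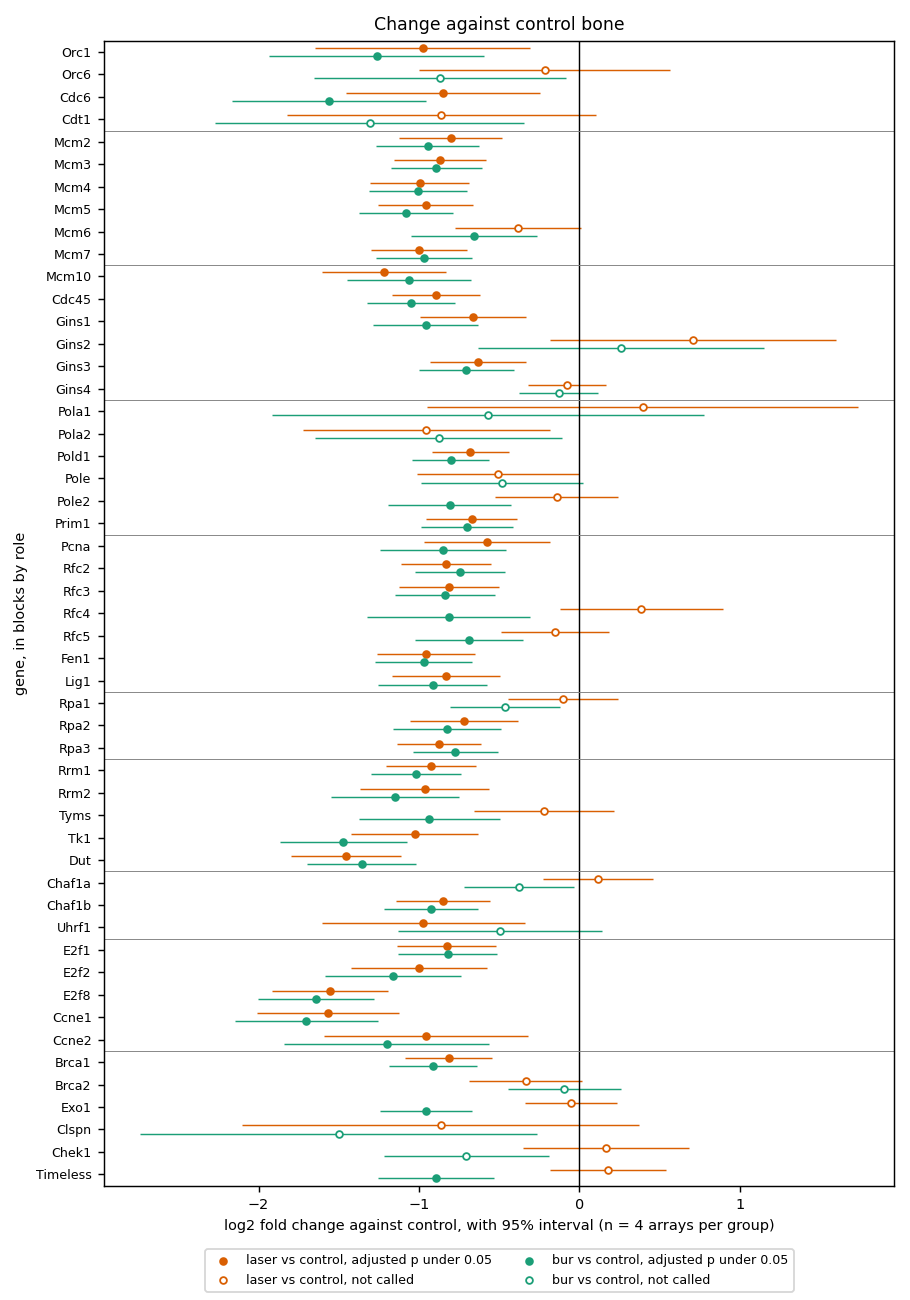
Log2 fold change against control bone (x axis) of each tested member (y axis, in blocks by role) in laser bone (orange) and bur bone (green), with 95% intervals, 4 arrays per group; filled points are called at an adjusted p under 0.05. Most points of both colours lie near -1, Ccne1 and E2f8 lie lowest among those called in both, and Rfc4, Timeless and Chek1 are among those that have orange points above 0 and green points below it.

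The 4 licensing genes place the helicase on origins. Cdc6, which with the origin recognition complex loads MCM, had log2 signals of 7.55, 7.61, 7.28 and 7.46 in laser bone and 7.31, 7.05, 6.55 and 6.13 in bur bone, against 8.498, 8.91, 7.96 and 7.92 in control bone. No bur or laser value reached the control range. Its fold change was -1.56 ± 0.28 (SE, n = 4 arrays per group) in bur bone (adjusted p = 0.00264) and -0.85 ± 0.28 in laser bone (adjusted p = 0.0349). Orc1, the largest subunit of the origin recognition complex, was dim, with 3.43, 3.68, 3.48 and 4.17 in laser bone and 3.95, 3.83, 3.35 and 2.49 in bur bone, against 4.53, 4.95, 4.87 and 4.31 in control bone, and only 1 bur array read it well above background. It was called lower in bur bone at -1.26 ± 0.31 (adjusted p = 0.0128) and in laser bone at -0.98 ± 0.31 (adjusted p = 0.0293). The laser calls were lost for Cdc6 without any 1 of the 4 laser arrays, control 1 or control 2 (adjusted p 0.0587 to 0.0841) and for Orc1 without laser 1, 2 or 3 or control 2 or 3 (0.0635 to 0.0792). Cdt1, which delivers MCM to the origin and is degraded once S phase starts, was dim too. Its bur values ran from 2.23 to 4.20, and only 2 bur arrays read it well above background, so the size of its fall is uncertain. Cdt1 did not pass at -1.31 ± 0.44 in bur bone (adjusted p = 0.0525) and -0.86 ± 0.44 in laser bone. It was called lower in bur bone without bur 1, bur 3 or control 1 (adjusted p 0.0327 to 0.0426) and with 75th percentile scaling (0.0150). The same held with array weights (0.0466) and with a robust trend in limma's prior (0.0485). Orc6, another subunit of the complex, did not pass either, with -0.87 ± 0.36 and -0.22 ± 0.36, but it was called lower in bur bone without bur 1 (adjusted p = 0.0274), with 75th percentile scaling (0.0234) and with the deposited log2 values (0.0499).

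The 6 subunits of the MCM helicase, the ring that unwinds DNA at the fork, all fell in bur bone, by log2 changes of -0.66 to -1.08. In laser bone 5 fell. Mcm5 had 10.56, 10.53, 10.78 and 11.01 in laser bone and 10.47, 10.70, 10.76 and 10.46 in bur bone, against 11.63, 11.61, 11.74 and 11.74 in control bone. Mcm7 had 10.83, 10.94, 11.03 and 11.16 in laser bone and 10.69, 11.19, 11.17 and 11.03 in bur bone, against 11.87, 11.99, 12.09 and 12.003 in control bone. For both genes the control arrays lay within a narrow band well above all other arrays. The fold changes of Mcm5 were -1.08 ± 0.13 in bur bone (adjusted p = 0.000483) and -0.96 ± 0.13 in laser bone (adjusted p = 0.000392). Those of Mcm7 were -0.97 ± 0.14 (adjusted p = 0.000879) and -0.9998 ± 0.14 (adjusted p = 0.000348). Mcm2, Mcm3 and Mcm4 had -0.94 ± 0.15, -0.89 ± 0.13 and -1.01 ± 0.14 in bur bone and -0.80 ± 0.15, -0.87 ± 0.13 and -0.995 ± 0.14 in laser bone. Mcm6 was the member of the ring that changed least, with -0.66 ± 0.18 in bur bone (adjusted p = 0.0226, lost without bur 2 or bur 4 at 0.0507 and 0.0601) and -0.38 ± 0.18 in laser bone (adjusted p = 0.122). In laser bone Mcm6 was called lower with 75th percentile scaling (0.0463), normexp (0.0330) and the deposited log2 values (0.0436). No subunit was called between laser and bur bone, where the differences lay between -0.03 and 0.27.

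Among the 6 genes that turn the loaded ring into a working helicase, 4 fell with each instrument. Cdc45, which rides with MCM and GINS at the fork, had 10.35, 10.28, 10.40 and 10.47 in laser bone and 10.05, 10.38, 10.35 and 10.10 in bur bone, against 11.04, 11.32, 11.41 and 11.30 in control bone. The groups of cut bone overlapped each other and stayed below every control array, with -1.05 ± 0.12 for bur (adjusted p = 0.000408) and -0.89 ± 0.12 for laser (adjusted p = 0.000387). Mcm10, an initiation factor, was lower by -1.06 ± 0.18 in bur bone and -1.22 ± 0.18 in laser bone. The 4 GINS subunits did not read alike. Gins1 had -0.96 ± 0.15 and -0.66 ± 0.15 for bur and laser bone and Gins3 had -0.70 ± 0.14 and -0.63 ± 0.14, all called, whereas Gins4 had -0.13 ± 0.11 and -0.08 ± 0.11, neither of them called, with 95% intervals of -0.37 to 0.12 and -0.32 to 0.17. Gins2 was dim, with 4.37, 4.07, 4.23 and 4.64 in laser bone and 4.04, 3.96, 3.89 and 3.64 in bur bone, against 2.42, 3.14, 4.78 and 4.13 in control bone. It was well above background on 4 laser, 1 bur and 2 control arrays, and control 1 and control 2 lay lowest. Its fold changes were 0.26 ± 0.41 in bur bone and 0.71 ± 0.41 in laser bone, neither called, but it was called higher in laser bone without control 3, at 1.095 (adjusted p = 0.0287). In bur bone the sign turned under 75th percentile scaling (-0.21) and without control 1 (-0.14).

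Of 6 polymerase and primase subunits 3 fell in bur bone and 2 in laser bone. Pold1, the catalytic subunit of polymerase delta, had 9.43, 9.23, 9.22 and 9.48 in laser bone and 9.06, 9.27, 9.28 and 9.27 in bur bone, against 9.96, 10.09, 10.05 and 9.98 in control bone. It was lower by -0.80 ± 0.11 in bur bone (adjusted p = 0.000753) and -0.68 ± 0.11 in laser bone (adjusted p = 0.000919), and the 4 control values lay above all others. Prim1, the primase that makes RNA primers, had -0.70 ± 0.13 and -0.67 ± 0.13, both called. Pole, the catalytic subunit of the leading-strand polymerase epsilon, had 5.09, 5.28, 5.36 and 5.37 in laser bone and 5.12, 5.54, 5.51 and 5.03 in bur bone, against 5.40, 6.11, 6.31 and 5.31 in control bone, where control 2 and control 3 stood above the rest. It was not called at -0.48 ± 0.23 and -0.51 ± 0.23, except in laser bone without control 4 (-0.66, adjusted p = 0.0485), and under 75th percentile scaling it was called lower in both (-0.85 and -0.70), as it was without control 1 and control 4 (-0.91 and -0.94). Pola1, the catalytic subunit of polymerase alpha, was dim and ranged from 1.48 to 4.09 in bur bone alone, with fold changes of -0.57 ± 0.61 and 0.40 ± 0.61 that were not called. Its partner Pola2 was not well above background on any bur array, whereas 3 of 4 control arrays measured it. The mean of Pola2 was lower in bur than in control bone (2.99 and 3.86), but it was not called (adjusted p = 0.0935). Control 1, at 2.92, lay within the bur range of 2.65 to 3.27, so the size of the difference is uncertain. In laser bone Pola2 had -0.95 ± 0.35 (not called, adjusted p = 0.0557), but it was called lower without control 1 in bur bone (adjusted p = 0.0200) and without control 1 or laser 4 in laser bone (0.00972 and 0.0208), and with 75th percentile scaling in both (0.0124 and 0.0263).

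The clamp, its loader and the enzymes that join lagging-strand fragments were the block in which all 7 members fell in bur bone, and 5 fell in laser bone. Fen1, the nuclease that trims flaps between fragments, had 10.95, 11.15, 11.23 and 11.40 in laser bone and 10.999, 11.41, 11.26 and 11.002 in bur bone, against 12.14, 12.07, 12.28 and 12.07 in control bone. Both cut groups lay at about the same level, well below the control arrays, with -0.97 ± 0.14 for bur (adjusted p = 0.000893) and -0.96 ± 0.14 for laser (adjusted p = 0.000463). Lig1, the ligase that seals the fragments, had -0.91 ± 0.15 and -0.83 ± 0.15. Pcna, the sliding clamp itself, fell by less, with -0.85 ± 0.18 in bur bone and -0.57 ± 0.18 in laser bone (adjusted p = 0.0285), and its laser call was lost without control 1 or 2 or laser 2, 3 or 4 (adjusted p 0.0538 to 0.0726) and under 75th percentile scaling (0.0570). The loader subunits split. Rfc2 and Rfc3 fell in both, by -0.74 ± 0.13 and -0.84 ± 0.14 in bur bone and -0.83 ± 0.13 and -0.81 ± 0.14 in laser bone, whereas Rfc4 and Rfc5 fell in bur bone only and are described with the laser and bur comparison.

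Replication protein A coats single-stranded DNA, and 2 of its 3 subunits fell in each comparison. Rpa3, the smallest subunit, had 9.82, 9.74, 9.75 and 9.69 in laser bone and 10.06, 9.67, 9.99 and 9.67 in bur bone, against 10.68, 10.69, 10.55 and 10.57 in control bone. All control values exceeded the others, with -0.77 ± 0.12 for bur (adjusted p = 0.00138) and -0.87 ± 0.12 for laser (adjusted p = 0.000355). Rpa2, the subunit that is phosphorylated under replication stress, had -0.83 ± 0.15 and -0.72 ± 0.15, both called. Rpa1, the largest subunit, was not called at -0.46 ± 0.16 in bur bone (adjusted p = 0.0539) and -0.10 ± 0.16 in laser bone, but it was called lower in bur bone without bur 1 or control 1 (adjusted p = 0.0151 and 0.0356), with 75th percentile scaling (0.00369), with array weights (0.0328) and with only probes well above background on all arrays (0.0375).

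All 5 genes of nucleotide supply fell in bur bone and 4 in laser bone. Dut, which removes dUTP before it can enter DNA, had 11.02, 11.01, 10.90 and 10.98 in laser bone and 11.04, 11.47, 11.05 and 10.74 in bur bone, against 12.54, 12.58, 12.43 and 12.18 in control bone. It was the member of this block with the largest fall in laser bone, at -1.46 ± 0.16 (adjusted p = 7.29e-05), with -1.36 ± 0.16 in bur bone (adjusted p = 0.000383). Tk1, the salvage kinase of thymidine, had 10.71, 10.65, 10.81 and 10.74 in laser bone and 10.54, 10.44, 10.25 and 9.90 in bur bone, against 11.95, 12.11, 11.48 and 11.49 in control bone. All bur values of Tk1 lay below all laser values (as in 14% of all genes), and the fold changes were -1.47 ± 0.18 in bur bone and -1.03 ± 0.18 in laser bone. The difference between laser and bur bone, 0.44 ± 0.18, was not called (adjusted p = 0.0946), but it was with the deposited log2 values (0.0293), averaged probes (0.0485) and array weights (0.0224). Rrm1 and Rrm2, the subunits of ribonucleotide reductase, had -1.02 ± 0.13 and -1.15 ± 0.18 in bur bone and -0.93 ± 0.13 and -0.96 ± 0.18 in laser bone, all called.

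Of the E2F and cyclin E genes all 5 fell in both comparisons, with a median log2 fold change of -1.20 in bur bone and -0.999 in laser bone. Ccne1, the cyclin E that activates Cdk2 before S phase, had 9.78, 9.87, 9.81 and 9.88 in laser bone and 9.81, 9.95, 9.76 and 9.28 in bur bone, against 11.69, 11.79, 11.16 and 10.96 in control bone. E2f8, a repressor of E2F targets that is itself made in S phase, had 8.57, 8.81, 8.85 and 8.88 in laser bone and 8.74, 9.03, 8.72 and 8.28 in bur bone, against 10.54, 10.33, 10.35 and 10.11 in control bone. In both genes a gap separated the control arrays from all others. Ccne1 was lower by -1.70 ± 0.20 in bur bone (adjusted p = 0.000408) and -1.57 ± 0.20 in laser bone (adjusted p = 0.000244), which is 3.25-fold and 2.96-fold. E2f8 was lower by -1.64 ± 0.16 (adjusted p = 0.000268) and -1.56 ± 0.16 (adjusted p = 6.81e-05), 3.12-fold and 2.94-fold. The activators E2f1 and E2f2 had -0.82 ± 0.14 and -1.16 ± 0.19 in bur bone and -0.83 ± 0.14 and -0.999 ± 0.19 in laser bone. Ccne2, the second cyclin E, varied more, with -1.20 ± 0.29 and -0.96 ± 0.29, and its laser call was lost without control 1 or 2 or laser 3 or 4 (adjusted p 0.0525 to 0.0701). None of the 5 was called between laser and bur bone, with differences of -0.01 to 0.25.

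Of the 3 tested genes of chromatin assembly, Chaf1b fell in both comparisons. This subunit of CAF-1, which deposits histones behind the fork, had 9.16, 9.28, 9.28 and 9.73 in laser bone and 9.15, 9.25, 9.29 and 9.44 in bur bone, against 10.19, 10.23, 10.19 and 10.24 in control bone. The 4 control arrays agreed closely, and the fold changes were -0.93 ± 0.13 (adjusted p = 0.000986) and -0.85 ± 0.13 (adjusted p = 0.000802). Uhrf1, which brings the maintenance methyltransferase to new DNA, was dim at 3.06 to 5.12 over all arrays. It was the member called in laser bone only, at -0.97 ± 0.29 (adjusted p = 0.0237), with -0.49 ± 0.29 in bur bone, and its difference between laser and bur bone, -0.48 ± 0.29, was not called. The laser call of Uhrf1 was lost without laser 1 or 2 or control 3 or 4 (adjusted p 0.0502 to 0.0712) and with the normexp background correction (-0.23, adjusted p = 0.0615).

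The 6 checkpoint and repair genes did not read alike, and 3 fell in bur bone and 1 in laser bone. Brca1, which acts in repair of broken forks, had 8.49, 8.32, 8.40 and 8.38 in laser bone and 8.38, 8.44, 8.35 and 8.03 in bur bone, against 9.20, 9.17, 9.41 and 9.07 in control bone, and it fell in both, by -0.91 ± 0.12 (adjusted p = 0.000726) and -0.81 ± 0.12 (adjusted p = 0.000648). Clspn, the adaptor that lets Chek1 be activated at stalled forks, had 5.74, 6.23, 5.30 and 5.57 in laser bone and 5.61, 6.30, 3.97 and 4.40 in bur bone, against 7.20, 7.54, 6.26 and 5.30 in control bone. The spread within groups was wide, and -1.501 ± 0.56 in bur bone and -0.86 ± 0.56 in laser bone were not called, although Clspn was called lower in bur bone without bur 2 (-1.91, adjusted p = 0.0321) or control 4 (-1.93, adjusted p = 0.0306), with 75th percentile scaling (0.0319), the deposited log2 values (0.0420), averaged probes (0.0408) and a replicate block (0.0116). Brca2, which acts in recombination repair and fork protection, had 7.47, 7.42, 7.65 and 7.83 in laser bone and 7.72, 7.83, 7.93 and 7.86 in bur bone, against 7.57, 7.81, 8.28 and 8.06 in control bone. These ranges overlapped, and neither -0.09 ± 0.16 in bur bone nor -0.33 ± 0.16 in laser bone was called. Without control 3 the bur value turned to 0.02, and without control 1 the laser value of -0.45 was called (adjusted p = 0.0394). Brca2 was also called lower in bur bone with the deposited log2 values (-0.45, adjusted p = 0.0191) and with its probes averaged (-0.53, 0.0219). In laser bone it was called lower with 75th percentile scaling (adjusted p = 0.0408), the deposited values (0.00446), averaged probes (0.00412) and array weights (0.0244).

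Exo1, Timeless and Rfc4 separated laser from bur bone, and with them 5 more members. Exo1, a nuclease of mismatch repair and fork processing, had 8.06, 8.06, 8.12 and 8.32 in laser bone and 7.30, 7.51, 7.04 and 7.09 in bur bone, against 8.05, 8.21, 8.27 and 8.24 in control bone. Timeless, which holds helicase and polymerase together at the fork, had 7.74, 7.62, 7.72 and 8.13 in laser bone and 6.86, 6.85, 6.87 and 6.33 in bur bone, against 7.70, 7.39, 7.74 and 7.66 in control bone. Rfc4, a clamp loader subunit, had 8.22, 8.20, 7.92 and 7.93 in laser bone and 7.53, 6.73, 6.93 and 6.28 in bur bone, against 7.54, 7.90, 7.84 and 7.45 in control bone. In each of these genes the 4 laser values lay above the 4 bur values, as in 8 of 51 members (15.7%) and 14% of all genes. The laser values of Exo1 and Timeless overlapped the control values. Laser bone exceeded bur bone by 0.90 ± 0.13 for Exo1 (adjusted p = 0.000676), 1.07 ± 0.16 for Timeless (adjusted p = 0.000918) and 1.20 ± 0.23 for Rfc4 (adjusted p = 0.00356). Against control bone they had -0.96 ± 0.13, -0.90 ± 0.16 and -0.81 ± 0.23 in bur bone, all called, and -0.05 ± 0.13, 0.18 ± 0.16 and 0.39 ± 0.23 in laser bone, none of them called. In laser bone Exo1 was called lower than in control bone with normexp (-0.28, adjusted p = 0.0177), the deposited log2 values (-0.32, 0.0384) and normexp on probes well above background on all arrays (0.0261). The laser values of Rfc4 lay above all control values all the same, as did those of 18% of all genes. The bur call of Rfc4 was lost without bur 2 or 4 or control 2 or 3 (adjusted p 0.0545 to 0.0670).

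The other 5 members called higher in laser than in bur bone were Pole2, Chek1, Tyms, Rfc5 and Chaf1a. Pole2, a subunit of polymerase epsilon, had 5.54, 5.42, 5.05 and 5.41 in laser bone, against 4.84, 4.39, 5.09 and 4.44 in bur bone, with 5.45, 5.52, 5.64 and 5.39 in control bone. Chek1, the checkpoint kinase that slows S phase, had 5.79, 5.62, 5.18 and 5.34 in laser bone, against 5.28, 4.55, 4.46 and 4.17 in bur bone, with 5.27, 5.64, 5.31 and 5.05 in control bone. Tyms, which makes thymidylate, had 7.84, 7.53, 7.44 and 7.62 in laser bone, against 7.27, 6.95, 6.96 and 6.39 in bur bone, with 7.71, 8.24, 7.73 and 7.64 in control bone. A bur array overlapped the laser range for Pole2 and Chek1 but not for Tyms. The differences were 0.67 ± 0.17 for Pole2 (adjusted p = 0.0171), 0.87 ± 0.24 for Chek1 (adjusted p = 0.0198) and 0.71 ± 0.20 for Tyms (adjusted p = 0.0232). Rfc5, a loader subunit, differed by 0.54 ± 0.15 and Chaf1a, the large subunit of CAF-1, by 0.49 ± 0.16. In bur bone against control bone Pole2, Tyms and Rfc5 were called lower, and Chek1, at -0.70 ± 0.24, and Chaf1a, at -0.38 ± 0.16, were not. Chek1 lay near the threshold (adjusted p = 0.0517) and was called lower in bur bone without bur 1 (0.00865), with 75th percentile scaling (0.00349), normexp (0.0475), the deposited log2 values (0.0448), only probes well above background on all arrays (0.0349) and a replicate block (0.0285). Chaf1a was called lower with 75th percentile scaling (-0.68, adjusted p = 0.00287). In laser bone against control bone the 5 lay between -0.22 and 0.17, none of them called.

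These 5 calls rested on few arrays. Without laser 1 the count of members higher in laser than in bur bone was 3, and without bur 2, bur 3, bur 4 or laser 4 it was 5. Without laser 1, Pole2, Chek1, Tyms, Rfc5 and Chaf1a all missed the threshold (adjusted p 0.0544 to 0.0704). Exo1, Timeless and Rfc4 stayed called when any 1 array was left out. With the normexp background correction Tyms had 0.38 (adjusted p = 0.0511) and Chaf1a 0.21 (adjusted p = 0.111). With the deposited log2 values they had 0.38 (0.0982) and 0.31 (0.0986). With all kept probes of a gene averaged, Exo1 had 0.83 (adjusted p = 0.145) and was not called lower in bur than in control bone either (-0.83, adjusted p = 0.147), and its second probe was not well above background on any bur array. Without bur 1, Cdc6 (0.89, adjusted p = 0.0396) and Rpa1 (0.49, adjusted p = 0.0288) were called higher in laser bone as well.

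**Figure D3:**
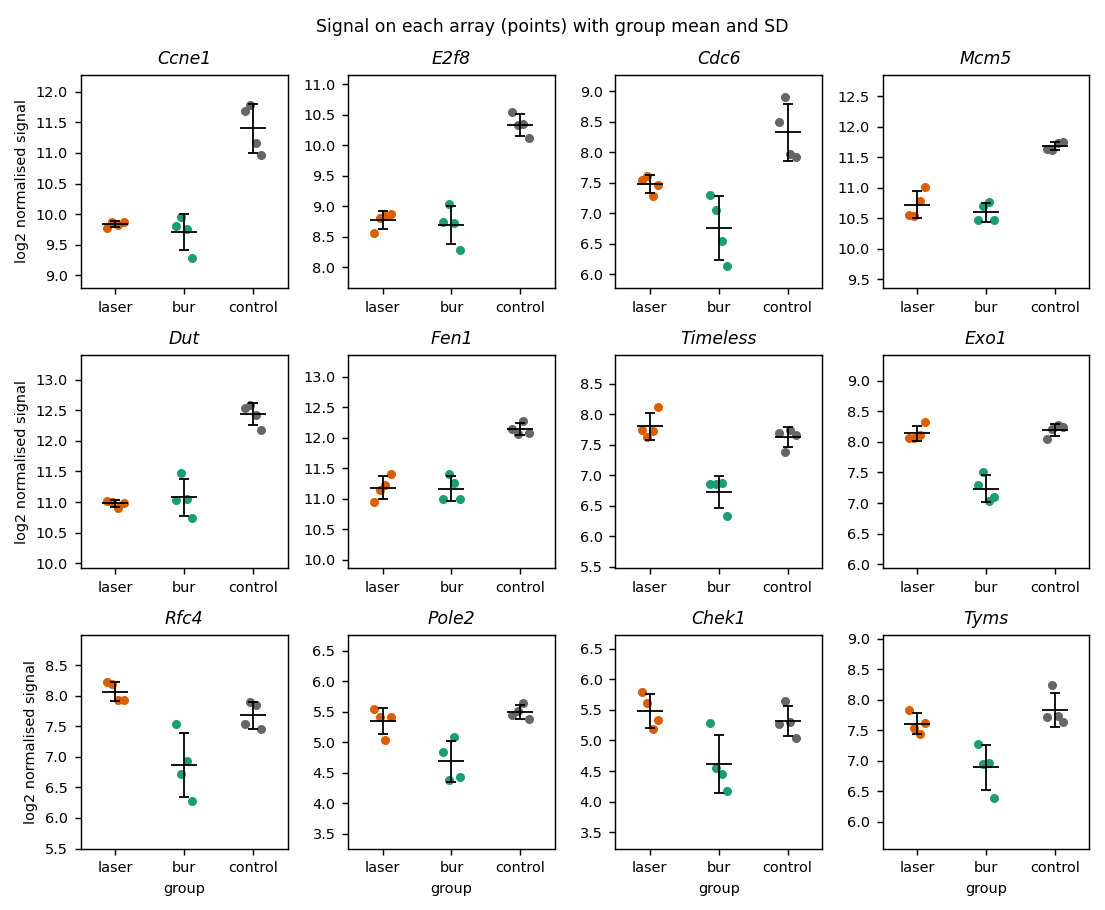
Log2 normalised signal (y axis) of 12 members on each array (points) in laser, bur and control bone, with group mean and SD (n = 4). In the upper 6 panels (Ccne1, E2f8, Cdc6, Mcm5, Dut, Fen1) laser and bur points lie below the control points, and in the lower 6 (Timeless, Exo1, Rfc4, Pole2, Chek1, Tyms) the laser points lie near or above the control points and the bur points mostly below both.

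The strips of single genes and the plot against brightness show that bright and dim members were not called lower equally often. The 22 members with a mean log2 signal of 9 or more were called lower in both comparisons, all of them, whereas 16.7% of all genes that bright were called lower in bur bone and 33.1% in laser bone. Of the 18 members between 6 and 9, 14 were lower in bur bone (9.45% of all such genes) and 8 in laser bone (14.2%). Of the 11 below 6, 2 were lower in each (5.5% and 7.23%). From bright to dim, the members' median log2 fold changes were -0.97, -0.82 and -0.81 in bur bone. In laser bone they were -0.91, -0.36 and -0.51, so members below 6 had negative medians too, though few were called. The differences between laser and bur bone ran the other way, with 0 of 22, 6 of 18 and 2 of 11 members called higher in laser bone, against 7.6%, 9.16% and 16% of all genes. Bright genes as a whole read lower in laser bone, with a median of -0.24 against control bone for all genes at 9 or more. The 22 bright members had -0.91 there. The part of signal level in the members' pattern was not tested.

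**Figure D4:**
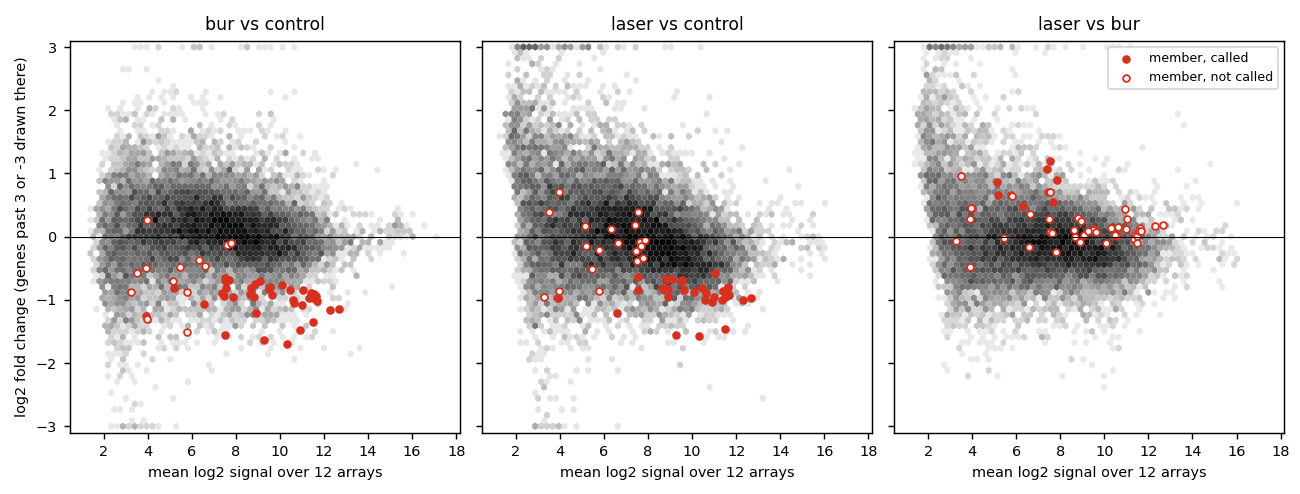
Log2 fold change (y axis) against mean log2 signal over the 12 arrays (x axis) for all 16381 genes (grey, darker where genes are denser) and the 51 members (red; filled if called) in bur against control, laser against control and laser against bur bone. Most members lie in the lower part of the grey cloud in the 2 comparisons with control bone, at bright levels above all. The 8 filled members of the laser and bur comparison lie between 5 and 8 on the x axis.

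Other genes of replication that are not members were lower in cut bone as well. Of 42 such genes 40 were tested, all but Pole4 and Dna2. In bur bone 25 were lower and 2 higher than in control bone (9.68% and 13.2% of all genes), with a median of -0.69. In laser bone 20 were lower and 1 higher (16.1% and 18% of all genes), with a median of -0.38. Top2a, the topoisomerase that untangles DNA, had -1.24 ± 0.16 in bur bone and -0.59 ± 0.16 in laser bone. Nasp, a histone chaperone, had -0.83 ± 0.11 and -1.002 ± 0.11. Cdk2, the kinase partner of cyclin E, had -0.70 ± 0.12 in bur bone and -1.06 ± 0.12 in laser bone. All 3 were called lower in both comparisons. The exceptions, named after their values were seen, were Orc5, a subunit of the origin recognition complex, higher in both at 1.30 ± 0.33 and 1.43 ± 0.33 but well above background on only 1 of 4 control arrays, and Pold4, a small subunit of polymerase delta, higher in bur bone at 0.53 ± 0.14. Between laser and bur bone 6 were higher in laser bone and 1 lower (11.5% and 13.8% of all genes).

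Genes that hold cells out of S phase did not mirror the members. Of 13 tested, 3 were lower and 1 higher in bur bone than in control bone (9.68% and 13.2% of all genes). In laser bone 5 were lower and 2 higher (16.1% and 18% of all genes). Cdkn1a, the p21 inhibitor of cyclin-dependent kinases, rose in both, by 1.94 ± 0.28 in bur bone (adjusted p = 0.000893) and 0.90 ± 0.28 in laser bone (adjusted p = 0.0274), and it was lower in laser than in bur bone by -1.04 ± 0.28 (adjusted p = 0.0183). Cdkn1b, the p27 inhibitor, fell instead, by -0.74 ± 0.19 in bur bone and -1.32 ± 0.19 in laser bone. E2f4, a repressor E2F of resting cells, fell by -0.87 ± 0.14 in bur bone and -0.45 ± 0.14 in laser bone. Btg2, an antiproliferative gene, fell in laser bone at -1.08 ± 0.18 and had -0.24 ± 0.18 in bur bone, which was not called.

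Markers of other cell types moved alongside the members. All 12 erythroid markers, genes of red cell precursors that divide in marrow, were called lower in both comparisons (9.68% and 16.1% of all genes). Their medians were -1.67 in bur bone and -1.45 in laser bone. Their summed signal was 55593.6 to 71135.2 in laser bone, 45041 to 96491.8 in bur bone and 156082 to 186729 in control bone. None was at 0, and all 12 were well above background on every array except Ermap on 1 bur array. Klf1, the master factor of red cell genes, had -1.59 ± 0.19 and -1.28 ± 0.19. Between laser and bur bone 0 of the 12 were called (limma), with 2 higher at an unadjusted p under 0.05.

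Among white cells the pattern was mixed. For the counts that follow, 9.68% of all genes were called lower and 13.2% higher in bur bone than in control bone. In laser bone these shares were 16.1% and 18%. Of 11 tested markers of neutrophils and their precursors, among them Mpo, Elane, S100a8 and S100a9, 3 were lower in bur bone and 3 higher in laser bone than in control bone. Their median fold changes were -1.03 and -0.55. Their summed signal was 115227 to 174952 in laser bone, 45580.4 to 76972.1 in bur bone and 70550.9 to 103370 in control bone. In laser bone the median was thus lower but the summed signal higher, so the genes of this list did not move alike. Of 11 tested markers of B-cell precursors 0 were called in bur bone (1 higher at an unadjusted p under 0.05) and 1 was lower in laser bone. Their summed signal was 2299.51 to 4986.33 in laser bone, 2283.68 to 3652.86 in bur bone and 3429.03 to 4454.1 in control bone. Of 12 markers of monocytes and macrophages 9 were called higher in bur bone than in control bone, and 4 in laser bone, where the other 8 were not called. Their summed signal was 49346.4 to 75039.1 in laser bone, 97874.1 to 138072 in bur bone and 55620.1 to 84819.7 in control bone. Markers of bone cells were higher for 2 of 11 in bur bone and 6 of 11 in laser bone (13.2% and 18% of all genes). Of 6 tested neural markers 3 were lower in each comparison, and their summed signal ran from 244.704 to 415.502 in laser bone, 148.478 to 1123.14 in bur bone and 497.703 to 11285 in control bone. The part of any of these cells in the lower replication signal was not tested.

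**Figure D5:**
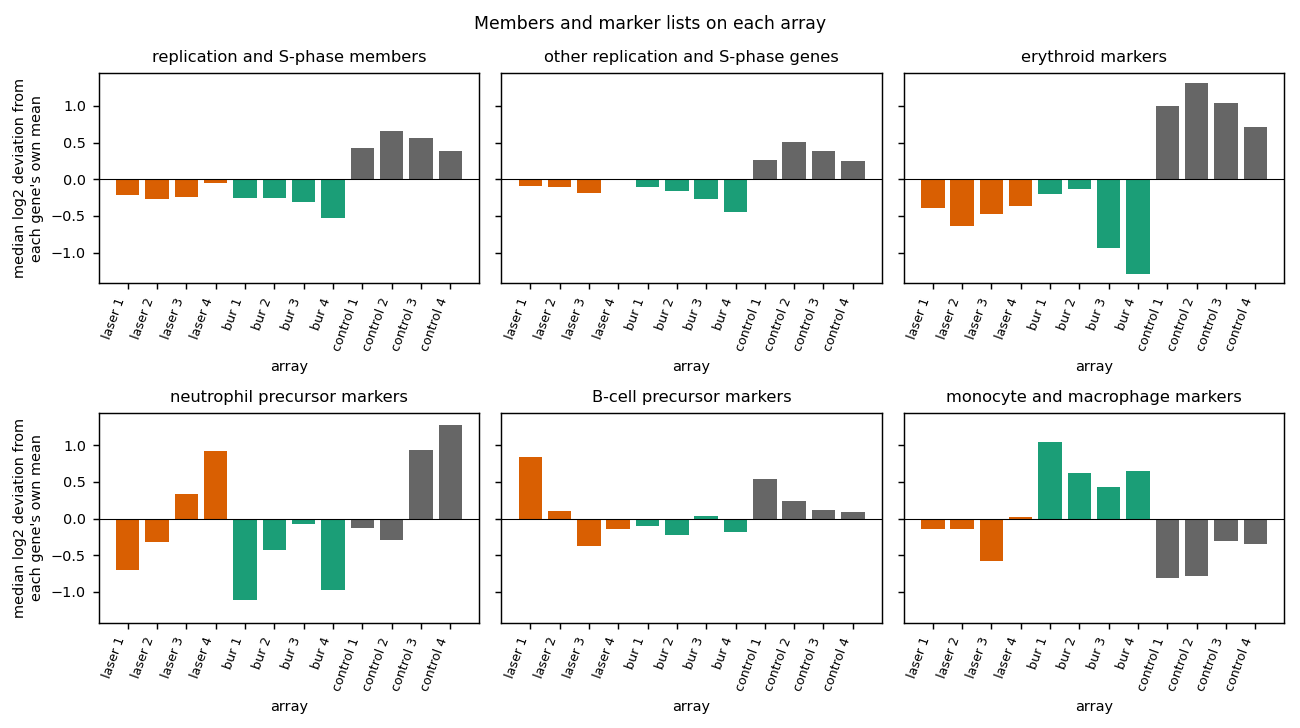
Median log2 deviation of a list's genes from their own means over the 12 arrays (y axis) on each laser, bur and control array (x axis), for the members, other replication genes and 4 lists of cell markers. Members, other replication genes and erythroid markers are above 0 on all 4 control arrays and below 0 on every laser and bur array. The B-cell list is above 0 on all 4 control arrays too, but also on some laser and bur arrays. The neutrophil list varies within groups, and the monocyte and macrophage list is highest on the bur arrays.

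The plot of lists by array sets the members beside the marker lists on each array. The erythroid list was lowest on bur 3 and bur 4, at -0.94 and -1.29, and stood at -0.20 and -0.13 on bur 1 and bur 2. The members stood at -0.30, -0.54, -0.26 and -0.26 on the same arrays. On laser 4 the members stood at -0.05 and the erythroid list at -0.36.

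Of the 20 members with more than 1 kept probe, several had probes that disagreed. The dimmer Brca2 probe shown above was called lower in both comparisons in a fit over all kept probes, by -0.96 ± 0.22 in bur bone (adjusted p = 0.0106) and -1.05 ± 0.22 in laser bone (adjusted p = 0.00454), whereas the brighter probe was called in neither. The dimmer probe had 6.18, 6.29, 6.07 and 5.77 in laser bone and 6.14, 6.62, 6.12 and 5.77 in bur bone, against 7.04, 7.44, 7.38 and 6.66 in control bone, without overlap. The second probe of Rpa3 had 9.72, 9.56, 9.67 and 9.27 in laser bone and 9.25, 8.75, 9.004 and 8.83 in bur bone, against 9.59, 9.76, 9.63 and 9.31 in control bone, and so did not show the fall in laser bone, at -0.02 ± 0.16. A dimmer probe of Clspn, well above background on 1 bur array only, was called lower in both, at -1.47 ± 0.34 and -1.23 ± 0.34. The second probes of Gins2 and E2f8 and the dimmest probe of Pole were not well above background on any bur array. No fold is given for them there, and none of them was called. The second Mcm5 probe fell in bur bone, at -0.78 ± 0.19, and was not called in laser bone, at -0.37 ± 0.19. Second probes of Chaf1b and Mcm3 were called lower in laser bone only. In bur bone they had -0.39 ± 0.16 (adjusted p = 0.111) and -0.54 ± 0.20 (adjusted p = 0.0752). The dimmest kept Mcm4 probe was called in neither, at -0.56 ± 0.33 and -0.58 ± 0.33. The dimmer Brca1 probe, well above background on 1 bur array, was called lower in laser bone only. In bur bone it had -0.34 ± 0.28. With all kept probes averaged, 39 members were called lower in bur bone and 33 in laser bone.

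A match in the promoter did not separate the members. The 19 tested members with at least 1 E2F match had medians of -0.89 in bur bone and -0.72 in laser bone against control bone. The 22 without a match, Ccne1 among them, had -0.87 and -0.75. Between laser and bur bone the medians were 0.14 with and 0.13 without a match. No test was made of these medians.

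In the authors' deposited table of comparisons, 49 members were found under the same probe. By its adjusted p-values 40 of them were lower and 0 higher in bur than in control bone, 32 lower and 0 higher in laser than in control bone, and 0 lower and 8 higher in laser than in bur bone. These 8 were not the same genes as the 8 called above. They held Cdc6 (0.68, adjusted p = 0.0126) and Tk1 (0.50, 0.0280) and lacked Tyms (0.0709) and Chaf1a (0.130). Its median log2 fold changes were -0.77, -0.57 and 0.16, smaller in size than those given above in both comparisons with control bone.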

How the data were processed

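RNA of calvarial bone from 4 laser, 4 bur and 4 control samples was hybridised to 12 one-colour Agilent arrays of 62976 spots, of which 4259 were controls. Per the file headers, the scanner software (Agilent Feature Extraction 11.0.1.1) subtracted the background from each spot's intensity, and the files were deposited without normalization between arrays. The authors also deposited a table of log2 values, quantile normalized as its name says, and tables of comparisons with log2 fold changes and p-values whose test is not given in the sources used here.

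The log2 of the processed signal was quantile normalized, control spots and spots with outlier flags were left out, spots of a probe were averaged, and 27194 of 45598 probes were kept, those well above background on at least 4 of 12 arrays. No probe spot was saturated. The brightest kept probe stood for each of 16381 genes. All 12 arrays entered 1 fit of group means in limma 3.58.1 (R 4.3.3), and p-values were adjusted over all genes by Benjamini-Hochberg, with calls at an adjusted p under 0.05. The fit was tested on simulated data. All 52 members could be named; values on every array were given for the member of each role with the smallest p in each comparison with control bone, up to 6 members called between laser and bur bone and up to 6 whose probes disagreed, and for Ccne1 and Tk1, chosen after their values were seen. The members and all gene lists were chosen with earlier results of these data known. Alternatives were 75th percentile scaling, normexp with an offset of 50, the deposited log2 values, other filters and probe rules, 2-group fits, array weights, a replicate block and leaving out arrays. RefSeq tables gave promoters (GRCr8).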

Additional observations from a re-analysis of the deposited data

Results flagged for a closer look

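Among the 153 sets of 4 arrays (51 members in 3 groups), 5 held an array set apart from the rest by a gap that took up most of the range, which is 3.27%, where chance gives about 1 in 20. Pola1, a dim gene, read 3.24 on laser 3, below 4.10 to 4.23 on the other laser arrays. Timeless, the fork protection factor, read 6.33 on bur 4, below 6.85 to 6.87 on the other bur arrays, and Pold1, of polymerase delta, read 9.06 on bur 1, below 9.27 to 9.28. Tyms, the thymidylate synthase, read 8.24 on control 2, above 7.64 to 7.73 on the other control arrays. Pola2, the partner of Pola1, read 2.92 on control 1, below 4.04 to 4.25.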

How the results depend on the processing

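The count of members lower in bur than in control bone ran from 36 to 46 over the alternatives and that in laser bone from 28 to 35, and 0 were called higher in bur bone under any of them. With 1 array left out, members called higher in laser than in control bone numbered 0 to 1 (Gins2 without control 3), and those higher in laser than in bur bone 3 to 10. With array weights the last count was 13. The members' median moved in size under normexp (-0.67 for bur and -0.56 for laser against control), with the deposited log2 values (-0.77 and -0.57) and with normexp on probes well above background on all arrays (added once the data had been seen), at -0.76 and -0.64. The sign of Gins2 in bur bone turned with 75th percentile scaling (-0.21), normexp (-0.046), the deposited values (-0.14), averaged probes (-0.31), array weights (-0.029) and without control 1 and control 4 (-0.081), and it ran from -0.14 to 0.65 with 1 array left out. Brca2 in bur bone ran from -0.21 to 0.024 with 1 array left out. Chek1 in laser bone turned to -0.027 with 75th percentile scaling, Exo1 in laser bone to 0.0029 with averaged probes (against -0.28 and -0.32, both called, with normexp and the deposited values), and Pole to 0.0042 in bur and 0.10 in laser bone with the deposited values and to 0.20 in laser bone with averaged probes. The cause of these turns was not tested. Genes called in bur against control bone numbered 3747, and 2370 with only those 2 groups fitted or 2335 without control 1 and control 4.

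Replicate numbers were not taken to pair the samples, since not every correlation of same-numbered deviations across genes exceeded 0.1. The replicate number was also the row of the array on its slide, so pairing and row cannot be told apart here. Same-numbered correlations are given next. These correlations ran from 0.085 to 0.20 between bur and control, where 3 of 4 numbers correlated best with their own, and from -0.10 to 0.35 over all comparisons. With the replicate number as a block, 40 members were lower in bur bone, 32 lower in laser bone and 8 higher in laser than in bur bone, where Chaf1a lost its call and Cdc6 gained one. Chek1 and Clspn were called lower in bur bone under the block. Dim members set the limit of detection: Gins2, Pola1 and Orc1 were well above background on 1 bur array each.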
